A study of Homo sapiens with 12 samples.

Results

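The cadherins and protocadherins on the array were taken as the genes whose RefSeq symbol is CDH followed by a number or begins with PCDH, without antisense genes and pseudogenes. This gave 82 of the 27708 genes with a probe, of which 23 were CDH genes and 59 were PCDH genes. Of the PCDH genes, 15 belonged to the alpha, 15 to the beta and 16 to the gamma cluster, and 13 lay outside the clusters. A further 7 RefSeq symbols of the same form (PCDHB3, PCDHGA1, PCDHGA4, PCDHGA6, PCDHGA10, PCDHGA11 and PCDHGB5) had no probe assigned.

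Classical cadherins are calcium-dependent adhesion molecules that bind the same cadherin on the neighbouring cell and hold the actin cytoskeleton through beta-catenin, p120-catenin and alpha-catenin. E-cadherin (CDH1) marks epithelia and N-cadherin (CDH2) marks neural and mesenchymal cells. The clustered protocadherins are encoded by tandem first exons that each have a promoter of their own. In neurons, a small set of these promoters is chosen per cell, which gives neighbouring cells different surface identities.

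Daoy is an established human MB cell line. The cells were grown in astrocyte-conditioned medium (ACM, from primary rat astrocyte cultures) or in DMEM with 10% FBS and harvested after 1 passage (P1) or after 3 (P3), each of 48 h, with 3 arrays for each of the groups P1 ACM, P1 DMEM, P3 ACM and P3 DMEM. Each array was hybridised with Cy3-labelled RNA of 1 sample. The sources describe independent experiments but do not say which arrays came from the same one, so the p-values measure the spread between these samples. All cells were of 1 line, and each level is an average over the culture, in which fewer expressing cells and less RNA per cell cannot be told apart.

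The 12 arrays lay on 3 slides, and the slides followed the groups. On slide 1 were all 3 P1 ACM arrays with P3 ACM replicate 1. The remaining P3 ACM arrays were on slide 2 with P1 DMEM replicates 1 and 2, and slide 3 carried the third P1 DMEM array with all 3 of P3 DMEM. ACM and DMEM of the same passage never shared a slide. The share of probes well above background, by the scanner software's own flag, was 91.0 to 94.6% on slide 1, 74.3 to 80.4% on slide 2 and 88.1 to 91.0% on slide 3. A second set of deposited values, a log2 table, carried other sample labels: each of its 12 columns ranked its probes like the array of a different sample (Spearman's rho of 0.999986 or more, against 0.953 to 0.992 with the array of its own label). Group labels below are those of the scanner output, and results that turn with the labels of the table are given with both. The markers fixed for the line gave a mixed picture. Of 8 granule lineage and medulloblastoma markers, 5 were well above background on 12 arrays, PAX6, ZIC2, OTX2 and GLI1 among them. ATOH1 and NEUROD1 were so on 2 and 3. All 5 epithelial markers (EPCAM, KRT8, KRT18, KRT19 and CLDN4) were well above background on 12 arrays. So were 3 of the 4 mesenchymal markers (VIM, FN1, COL1A1 and LUM).

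Detection differed between the subgroups, from most beta protocadherins on every array to few of those outside the clusters. Counted through its brightest probe, a gene was taken as detected where that probe was well above background. Of the 82 members, 48 were detected on all 12 arrays, 30 on some and 4 (CDH17, CDH20, PCDH9 and PCDHGB6) on none. Of all genes, 72.8% were detected on every array and 3.32% on none. By subgroup, 13 of 15 beta, 11 of 15 alpha and 8 of 16 gamma protocadherins were detected on all 12 arrays, as were 13 of 23 CDH genes. Outside the clusters this held for 3 of 13 genes (PCDH1, PCDH8 and PCDH10), while 9 were detected on some arrays and 1 on none. The number of members detected was 70 to 75 on the arrays of slide 1, 51 to 61 on slide 2 and 72 or 73 on slide 3, so the dimmer members were lost on slide 2 in both the ACM and the DMEM arrays it held.

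**Figure D1:**
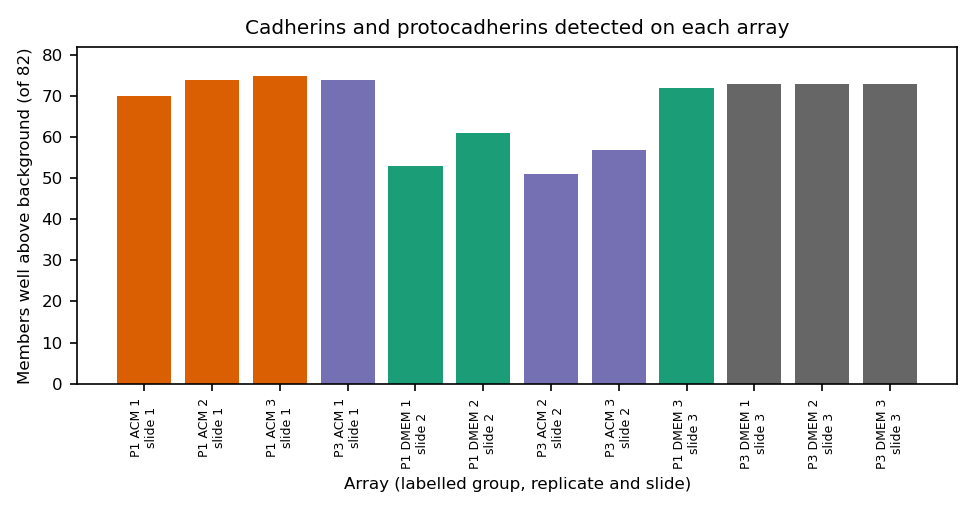
Number of the 82 cadherin and protocadherin genes well above background (vertical axis) on each of the 12 arrays (horizontal axis, ordered by slide), with bars coloured by labelled group. The 4 arrays of slide 2 hold 51 to 61 members and the other 8 arrays hold 70 to 75.

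Levels are given as log2 of the background-corrected signal minus the 75th percentile of the same array, so that 0 is the 75th percentile of all probes. They compare arrays for 1 probe and not 1 probe with another, since probes differ in how brightly they report the same amount of RNA. N-cadherin (CDH2), the classical cadherin of neural and mesenchymal cells, was at 2.42, 2.34 and 2.29 in P1 ACM and at 2.76, 2.58 and 2.65 in P1 DMEM. In P3 ACM it was at 2.18, 2.74 and 2.56, and in P3 DMEM at 2.75, 3.19 and 2.91. The ACM arrays were below the DMEM arrays at both passages without overlap, by margins that were small at P3, where the highest ACM array stood at 2.74 and the lowest DMEM array at 2.75. CDH11 (OB-cadherin, a type II cadherin of mesenchymal cells) was at 1.16, 0.61 and 1.74 in P1 ACM, at 1.75, 1.55 and 1.23 in P1 DMEM, at 0.02, 1.18 and 1.27 in P3 ACM and at 1.75, 2.10 and 1.85 in P3 DMEM. At P1 the groups overlapped and at P3 every ACM array lay below every DMEM array.

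E-cadherin (CDH1) was dim. Its probe was well above background on 8 of 12 arrays, at 3 of 3 in P1 ACM and in P3 DMEM and at 1 of 3 in P1 DMEM and in P3 ACM. It read -5.92, -6.05 and -5.50 in P1 ACM, -7.30, -7.63 and -6.52 in P1 DMEM, -5.86, -7.72 and -6.73 in P3 ACM and -7.25, -6.63 and -6.06 in P3 DMEM. The 4 highest readings were those of slide 1. P-cadherin (CDH3), the placental classical cadherin, was well above background on all 12 arrays and split the same way: -2.38, -2.32 and -2.18 in P1 ACM and -2.23 in P3 ACM replicate 1, against -4.05 to -3.71 on the 8 other arrays.

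The other CDH genes chosen for a bright probe had ranges of 0.43 (CDH5) to 2.04 (CDH4) over the 12 arrays. CDH5 (VE-cadherin, the cadherin of endothelial junctions) varied by 0.43 over the 12 arrays, between -0.94 and -0.51, the narrowest range among the 48 members detected throughout. Of the 4 endothelial markers examined beside it, VWF and TIE1 were well above background on 12 arrays, PECAM1 on 10 and KDR on 9. By the thresholds described below, PECAM1, KDR and TIE1 were higher in ACM at P1 and PECAM1 and TIE1 at P3, while CDH5 differed by 0.13 and 0.02. Of all genes, 13.5% were higher in ACM at P1 and 0.906% at P3. For KDR all 4 arrays of slide 1 lay above the 8 others, and for PECAM1 and TIE1 they did not. On slide 2, P3 ACM differed from P1 DMEM by 0.58 for PECAM1, by -0.41 for KDR and by 2.01 for TIE1. CDH22, a type II cadherin of the brain, was between 2.35 and 3.27. CDH18, a further type II cadherin of the nervous system, was between -0.29 and 0.84, and CDH24 between -2.18 and -0.70. T-cadherin (CDH13), which is tethered to the membrane by a lipid anchor and lacks a cytoplasmic tail, was between -0.31 and 1.18, and R-cadherin (CDH4), the classical cadherin of retina and brain, between -3.21 and -1.18. The values of both by replicate number are given below.

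Among the clustered protocadherins with a promoter entry, the promoters differed by cluster in a short sequence. Many promoters of the clusters carry a conserved element with the core CGCT, to which the insulator protein CTCF has been tied. In the RefSeq promoter table of GRCh38.p14 (250 bases before to 50 after each start), 40 of the 46 clustered members had an entry, 44 entries in all. The letters CGCT stood on either strand in 43 of these 44 (97.7%), against 70.0% of all 35116 promoters. The longer run GGCGCT, which contains CGCT, stood in 21 of 44 (47.7%), against 21.7% of all promoters. It was found in 12 of 13 beta entries, 8 of 18 gamma entries and 1 of 13 alpha entries. Among entries of members detected on all 12 arrays it was found in 16 of 28 (57.1%), and among the remaining entries in 5 of 16 (31.2%). These pooled shares mix the clusters, and 13 of 15 beta genes were detected throughout. By cluster, the run was found in 11 of 11 beta, 5 of 7 gamma and 0 of 10 alpha entries of members detected on all 12 arrays. Whether it went with detection within a cluster was not tested.

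The following 7 stretches of chromosome 5, from the plus strand of GRCh38.p14, belong to the bright clustered members with an entry and show how alike the beta promoters are around these letters. Capitals mark, on the strand printed, the GGCGCT nearest the start, or the nearest CGCT where that strand held no GGCGCT before the start, with 20 bases on either side. The stretch of PCDHGA8 holds GGCGCT on the other strand.

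PCDHB13, chr5:141213859-141213904: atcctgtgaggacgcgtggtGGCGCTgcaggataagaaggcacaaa

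PCDHB5, chr5:141135173-141135218: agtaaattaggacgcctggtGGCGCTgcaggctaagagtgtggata

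PCDHB2, chr5:141094538-141094583: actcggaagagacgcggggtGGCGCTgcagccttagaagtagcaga

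PCDHB16, chr5:141182304-141182349: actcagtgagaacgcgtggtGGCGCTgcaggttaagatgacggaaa

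PCDHGA8, chr5:141392564-141392607: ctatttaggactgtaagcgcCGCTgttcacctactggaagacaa

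PCDHA11, chr5:140868879-140868922: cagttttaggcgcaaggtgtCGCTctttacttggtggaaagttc

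PCDHA7, chr5:140834233-140834276: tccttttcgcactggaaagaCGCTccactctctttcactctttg

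The capitals began 13 to 63 bases before the start in these 7 promoters. PCDHB13, whose stretch opens the set, held a level between 0.84 and 1.49 over the 12 arrays. PCDHB5 was between 0.22 and 1.03, PCDHB2 between -0.19 and 1.45 and PCDHB16 between -0.97 and 0.53. In all of these beta genes the lowest array was P3 ACM replicate 1. PCDHB11, which has no entry in the table, was between -0.37 and 0.59, with the same array lowest. The bright probe of PCDHGA8, a gamma protocadherin, was between 1.89 and 2.68, and that of PCDHA11 between -0.35 and 0.65, again with P3 ACM replicate 1 lowest. PCDHA7 differed from these: it was at 0.57, 0.80, 0.64 and 0.62 on the 4 arrays of slide 1 and at -0.20 to 0.13 on the 8 others.

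Different probes of 1 clustered gene could differ in detection. PCDHGA8 had a second probe, matched to a different RefSeq transcript, that was well above background on 0 arrays, against 12 for the bright probe. Of the probes of PCDHA11, 1 was detected on 12 arrays and the other on 9. Both probes of PCDHGB1 were detected on 11 arrays and both of PCDHGA7 on 12. The alpha and gamma clusters join their variable first exons to shared constant exons, and the files used here do not give the position of a probe within a transcript. Whether a bright alpha or gamma probe read the shared part was not tested. Beta genes have no constant exons, and both probes of PCDHB2 were detected on 12 arrays. Outside the clusters, the brightest probe of PCDH1 differed between media at P1 by -0.38, while its other probe differed by 1.60, both on 12 arrays.

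At P1, ACM arrays read higher than DMEM arrays for many dim cadherins and protocadherins, and none was lower by 2-fold. The comparison asks what the first 48 h in ACM changed. By the thresholds of the study (more than 2-fold and an unadjusted p of 0.05 or less), 14 of the 72 members that passed the filter were higher and 0 were lower in P1 ACM, where 13.5% and 0.0989% of all 25272 genes tested were. They were CDH1, CDH3, CDH7, CDH10, CDH15, CDH26, PCDH11X, PCDHA2, PCDHB1, PCDHB7, PCDHGB1, PCDHGB7, PCDHGC4 and PCDHGC5. The second probe of PCDHGB1, detected on 11 arrays, differed by 0.72, under 2-fold. That of PCDHGB7 differed by 0.33 and was detected on 1 array. That of PCDHGC4 differed by 2.41 and was detected on 4 arrays. The median difference over the 72 members was 0.21 on the log2 scale, against 0.15 over all genes. No member passed at an adjusted p of 0.05 (limma, Benjamini-Hochberg over all probes kept), the smallest being 0.103. An unadjusted p of 0.05 or less was reached by 18 of 72, where 6069 of 25272 genes reached it. Of the 5 astrocyte markers tested, ALDH1L1 and S100B were higher and AQP4 was lower in P1 ACM, while SLC1A2 (0.67) and GJA1 (-0.11) did not pass. In ALDH1L1, S100B and SLC1A2 all 4 arrays of slide 1 lay above the 8 others. On slide 2, P3 ACM differed from P1 DMEM by 0.28 for ALDH1L1, 0.40 for S100B and -2.24 for AQP4. GFAP was well above background on 7 of 12 arrays, and the part of these markers in the members' differences was not tested. The ACM arrays lay above the DMEM arrays without overlap for 25 members and below for 1 (CDH2), where 30.6% and 5.38% of all genes did.

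PCDHGC4, a gamma protocadherin of the C type, showed the widest difference at P1. It was at -1.58, -1.35 and -2.17 in P1 ACM and at -3.62, -3.56 and -3.73 in P1 DMEM, a difference of 1.94 ± 0.68 (SE), or 3.84-fold (limma, adjusted p = 0.124). In P3 ACM its values were -1.24, -4.13 and -4.69. The 4 arrays of slide 1, all of ACM, were high and the 8 others, 2 of ACM and 6 of DMEM, were low. CDH3 was 3.00-fold higher in P1 ACM (1.58 ± 0.38 (SE), limma, adjusted p = 0.103), with the split described above.

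CDH10, a type II cadherin of the brain, was 3.07-fold higher in P1 ACM (1.62 ± 0.47 (SE), limma, adjusted p = 0.103). It was at -2.46, -2.34 and -1.86 in P1 ACM, at -4.43, -4.04 and -3.05 in P1 DMEM, at -2.32, -4.33 and -3.50 in P3 ACM and at -2.50, -2.40 and -2.81 in P3 DMEM. All 4 readings at or below -3.50 were those of slide 2, which held both media. CDH1 differed by 1.33 ± 0.46 (SE; limma, adjusted p = 0.123), with 1 of 3 DMEM arrays well above background. For PCDHA2 no DMEM array at P1 was well above background, and the bound on its difference was too low to give a fold. PCDH11X is nearly identical in sequence to its Y-linked copy, and its probe may read both.

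**Figure D2:**
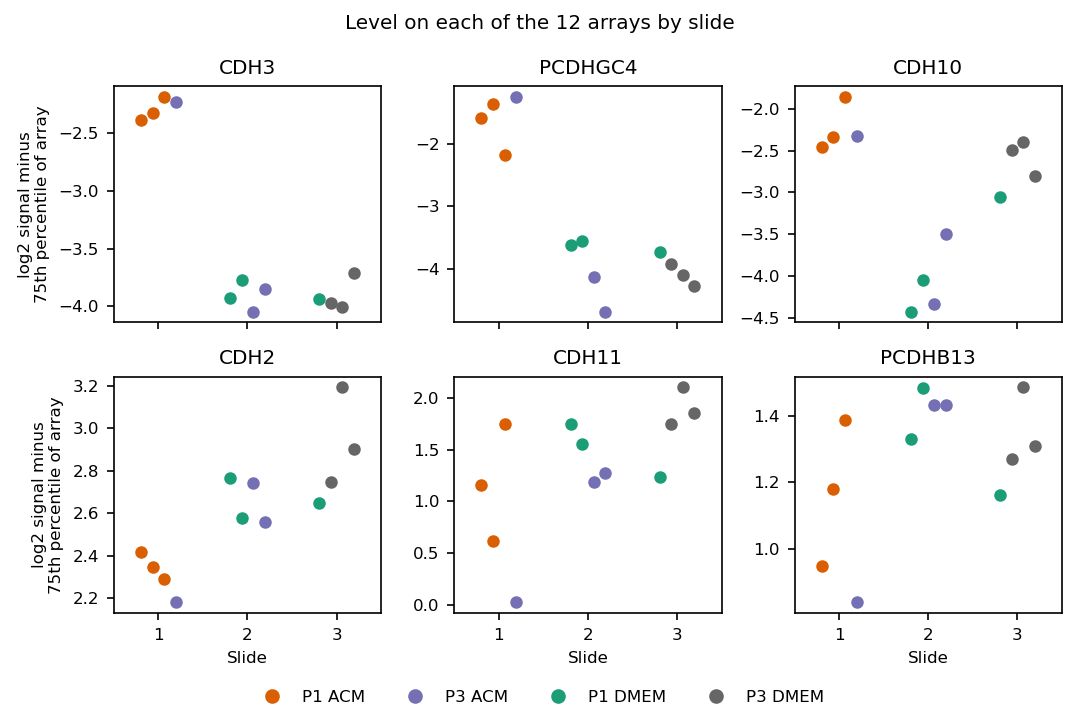
Level of 6 genes on each array (points, log2 signal minus the 75th percentile of the array; vertical scales differ between panels) by slide, coloured by labelled group. CDH3 and PCDHGC4 are high on all 4 arrays of slide 1, with the P3 ACM array there (-2.23 and -1.24) beside the P1 ACM arrays, and PCDHB13 stays between 0.84 and 1.49.

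The P3 arrays did not enter the P1 differences of the 14 members. They did enter the choice of the 14, through the shared estimate of the spread, the filter and the choice of the brightest probe. With only the P1 arrays in the fit, 17 members were higher, where 14.7% of all genes passed in either direction. The P3 ACM arrays lay on 2 slides. P3 ACM replicate 1, on slide 1, was above replicates 2 and 3, on slide 2, in 14 of the 14 and in 22 of the 58 other members, where this held for 51.6% of all genes. The same array was above all 3 P3 DMEM arrays in 14 of the 14 and in 20 of the 58, where 47.4% of all genes did so. Each of these counts rests on 1 array. All 4 arrays of slide 1 lay above the 8 other arrays in 21 of 72 members and in 21.7% of all genes. On slide 2, where P3 ACM and P1 DMEM arrays stood side by side, 0 of the 14 differed by 2-fold, 3 were higher in P3 ACM and 11 lower. Of all 72 members, 4 differed by 2-fold there, 22 were higher and 50 lower, and 4.50% of all genes differed by 2-fold. Passage and medium both differ in that comparison.

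Across the 72 members, the P1 difference between media and the difference between the slide 1 and slide 2 arrays within P3 ACM, which share no array, followed each other (Pearson's r = 0.83, Spearman's rho = 0.78). Over all 25259 genes with both values, r was 0.78 and rho 0.72. Genes are not independent replicates, and both differences set slide 1 against other slides, so the correlation is a description. The effect of medium at P1 and that of slide 1 cannot be told apart by the P1 arrays alone. With slide as a term, the fit could join P1 ACM to P1 DMEM only through the single P3 ACM array on slide 1. In it 0 members were higher and 4 were lower in P1 ACM: CDH16 (-1.62), PCDHGB1 (-1.13), PCDHGB2 (-1.28) and PCDHGC4 (-1.28). Of all genes, 2.10% passed in that fit. PCDHGC4 changed direction, and CDH3 went to -0.17. Under the labels of the authors' table CDH10 (-1.11) was lower and CDH16 (1.03) higher at P1, and PCDHGC4 and CDH3 stood at -0.81 and -0.27. With slide as a random block 0 members passed, and after quantile normalization 3 were higher (CDH3, CDH10 and PCDHGC4) and 2 lower (CDH16 and PCDHA10). Of all genes, 1.57% passed under the authors' labels, 1.66% with the random block and 4.49% after quantile normalization.

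**Figure D3:**
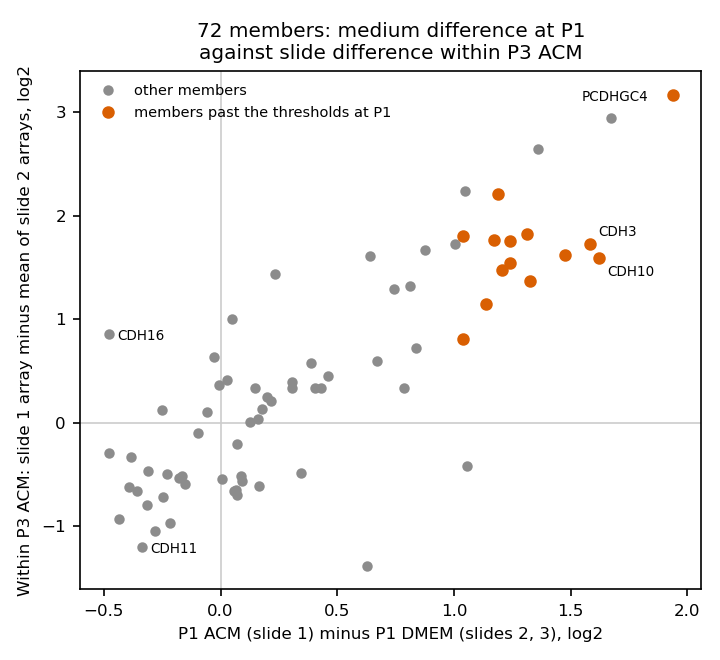
Difference between P1 ACM and P1 DMEM (horizontal axis, log2) against the difference between the slide 1 array and the mean of the slide 2 arrays within P3 ACM (vertical axis, log2) for 72 members, with the 14 members past the thresholds at P1 in orange. All 14 lie in the upper right, with PCDHGC4 at 1.94 and 3.17, and CDH11 lies at the lower left at -0.34 and -1.20.

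In the F test of slide beside group, slide 1 against slide 2 came from P3 ACM replicate 1 against replicates 2 and 3, and slide 3 against slide 2 from P1 DMEM replicate 3 against replicates 1 and 2. Each thus rested on 1 array and could not be told apart from its replicate number. By this test 24 of 72 members passed both thresholds, with 23.2% of all genes, and 13 passed at an adjusted p of 0.05 (limma), with 16.0% of all genes. PCDHGC4 had the smallest adjusted p of the members (0.0021), with slide 2 lower than slide 1 by 3.17 and slide 3 lower by 3.31 on the log2 scale. PCDHGB1, PCDHGC5 and PCDHGB7 of the gamma cluster, CDH3, CDH7, CDH9, CDH10 and CDH26 of the CDH genes, and PCDH11X, PCDH19, PCDHA2 and PCDHB1 made up the rest of the 13. CDH11 was the 1 member of the 24 that was lowest on slide 1, 1.20 below slide 2 (limma, adjusted p = 0.121).

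**Figure D4:**
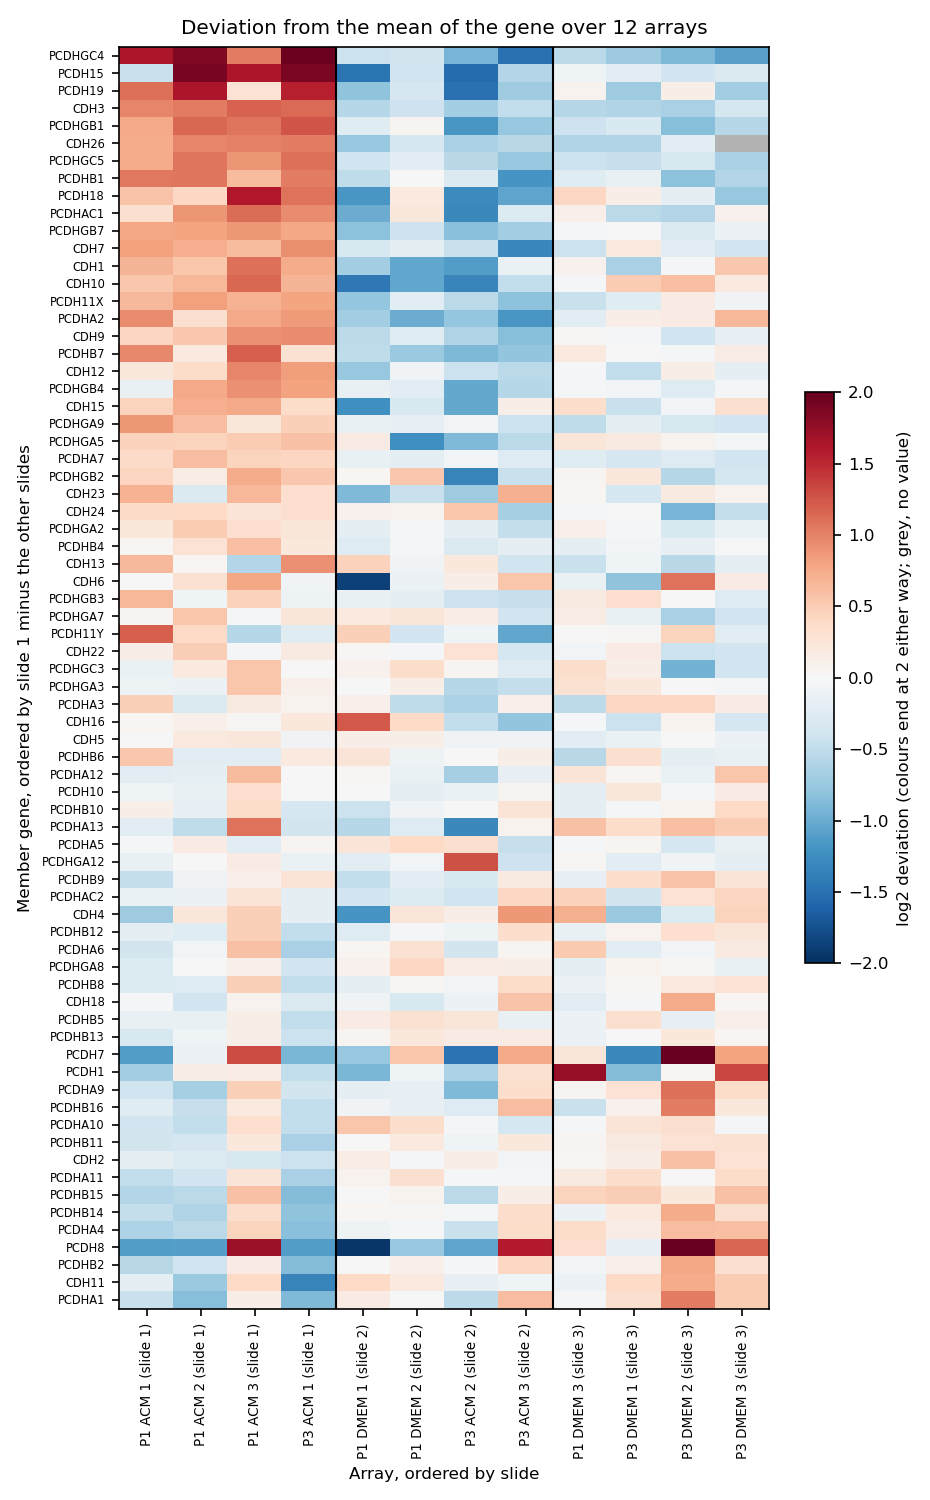
Deviation of each array from the mean of the gene over the 12 arrays (colour, log2; colours end at 2 either way) for the 72 members tested (rows, ordered by slide 1 minus the other slides) and 12 arrays (columns, ordered by slide, black lines between slides). The upper rows, led by PCDHGC4, are high on the 4 arrays of slide 1, the P3 ACM array included, and PCDH8 and PCDH7 near the bottom vary between arrays of 1 slide.

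At P3, CDH11 and PCDHA13 were lower in ACM, and no member was higher by the thresholds. The comparison asks what remained different after 3 passages. Of 72 members, 0 were higher and 2 lower, where 0.906% and 0.815% of all genes were. The 2 were CDH11, which was lower by 1.07 ± 0.36 (SE) on the log2 scale, or 2.10-fold (limma, adjusted p = 0.659), and PCDHA13, lower by 1.03 ± 0.46 (SE), or 2.04-fold (limma, adjusted p = 0.703). PCDHA13 was well above background on 1 of 3 P3 ACM arrays and on 3 of 3 P3 DMEM arrays. Non-overlapping groups numbered 0 higher and 6 lower (CDH2, CDH11, PCDHA3, PCDHA11, PCDHA13 and PCDHB15), where 4.74% and 5.02% of all genes did not overlap. The median difference of the 72 members was -0.14, against 0.00 over all genes, and 46 of 72 were negative. Under the labels of the authors' table the median was 0.14 over 73 members, with 43 positive and 30 negative, against 0.02 over all genes. By subgroup, 13 of 15 beta and 11 of 14 alpha members were negative, with medians of -0.29 and -0.47, while 8 gamma members were positive and 7 negative. The count of 2 was 7 without P3 ACM replicate 3, 4 without P3 DMEM replicate 1, 1 without P3 ACM replicate 2, P1 DMEM replicate 2 or P3 DMEM replicate 3, and 0 without P3 DMEM replicate 2. In the same order, 5%, 2.46%, 1.98%, 1.61%, 1.87% and 1.22% of all genes passed in either direction. Without P1 ACM replicate 1 the count stayed at 2, with 1 higher and 1 lower.

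CDH2 differed by -0.46 ± 0.18 (SE) at P3, or 1.37-fold (limma, adjusted p = 0.690, unadjusted 0.029), and by -0.31 ± 0.18 (SE) at P1 (limma, adjusted p = 0.358). Its second probe gave -0.29 at P3 and -0.34 at P1. Without P3 ACM replicate 1, the array on slide 1, the P3 difference was -0.30, and with slide as a term it was -0.33 at P3 and 0.15 at P1. For CDH11 the P3 difference was -0.67 without that array, under 2-fold, and -1.09 with slide as a term. ACM and DMEM arrays of P3 shared no slide. With slide as a term, the fit could join them only through the single P1 DMEM array beside the P3 DMEM arrays. The P3 values of CDH2 and CDH11 in that fit thus rest on this P1 DMEM array. They cannot show whether either difference was free of slide. Under the labels of the authors' table the P3 difference was 0.43 for CDH2, 0.42 for CDH11 and 0.84 for PCDHA13, the opposite direction in each case.

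Between the passages, few members moved in DMEM and more read lower in ACM. In DMEM, CDH10 was 2.41-fold higher at P3 (1.27 ± 0.47 (SE), limma, adjusted p = 0.571), 1 of 72 members, where 1.14% of all genes were higher. No member (0) was lower, with 0.582% of all genes. An unadjusted p of 0.05 or less (limma) was reached by 6 of 72 members and by 2052 of 25272 genes. Slide differed with passage, since all P3 DMEM arrays were on slide 3 and P1 DMEM had only replicate 3 there. Against that single array, the P3 DMEM arrays were higher by 0.48 for CDH10 on the log2 scale. Without P1 DMEM replicates 1 or 2, both on slide 2, or without P3 DMEM replicate 2, no member passed, and the count was 4 without P1 DMEM replicate 3 or P3 DMEM replicate 1 and 2 without P1 ACM replicate 3. In the same order, 1.2%, 0.882%, 0.601%, 3.81%, 3.98% and 1.74% of all genes passed in either direction. The P3 arrays lay above the P1 arrays without overlap for 12 members and below for 3, where 11.2% and 7.77% of all genes did, and 6 of the 12 were beta protocadherins. In the beta cluster 13 of 15 members were higher at P3 in DMEM, with a median of 0.26 against 0.08 over all genes.

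In ACM, 8 of 72 members were lower at P3 and 0 were higher, where 7.47% and 0.0356% of all genes were. They were CDH3, CDH10, PCDHA2, PCDHB1, PCDHB7, PCDHGB1, PCDHGB7 and PCDHGC4, with differences between -1.65 (PCDHGC4) and -1.04 (PCDHA2), and the smallest adjusted p was 0.370 (limma). All 8 were among the 14 members higher in P1 ACM, and both comparisons use the P1 ACM arrays. Without overlap, 0 members were higher and 3 lower (CDH5, CDH15 and PCDHGB3), where 2.70% and 4.10% of all genes were. Leaving out P3 ACM replicate 1, the slide 1 array, moved the count from 8 to 23, where 19.3% of all genes then passed in either direction, leaving out either of the other P3 ACM arrays moved it to 1, and leaving out P1 ACM replicate 2 moved it to 4. The shares of all genes were 1.34% without P3 ACM replicate 2, 1.2% without P3 ACM replicate 3 and 4.01% without P1 ACM replicate 2. On slide 1, P3 ACM replicate 1 differed from the mean of the P1 ACM arrays by 0.46 for PCDHGC4, by 0.07 for CDH3 and by -0.10 for CDH10. With slide as a term, 1 member was lower, CDH11 (-1.15), where 0.503% of all genes passed in either direction. That value is the difference on slide 1 and rests on P3 ACM replicate 1 alone.

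The difference of the ACM effect between the passages was past the thresholds for 6 members, all lower at P3, and for 0 in the other direction, where 6.82% and 0.0514% of all genes were. They were CDH1, CDH10, PCDH11X, PCDHA2, PCDHB7 and PCDHGB7, with the widest difference in CDH10 (-2.44 ± 0.66 (SE), limma, adjusted p = 0.625). All 6 were among the 14 members higher in P1 ACM, and the comparison uses the same P1 arrays. The count of 6 was 23 without P3 ACM replicate 1, 9 without P1 DMEM replicate 3 and 4 without P3 ACM replicate 2. Of all genes, 18.9%, 8.98% and 3.18% then passed in either direction.

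CDH4 varied with the replicate number across the 4 groups, and other members did so only by an unadjusted p. This was noticed in the members' values and then tested. CDH4 was at -2.74, -3.21, -2.24 and -2.78 on the replicate 1 arrays of P1 ACM, P1 DMEM, P3 ACM and P3 DMEM, at -1.81, -1.79, -1.91 and -2.31 on the replicate 2 arrays and at -1.56, -1.33, -1.18 and -1.59 on the replicate 3 arrays. The replicate 1 array was the lowest of its group and the replicate 3 array the highest in 4 of 4 groups, and the 3 numbers overlapped only between -2.31 and -2.24. Beside group, replicate number gave an adjusted p of 0.043 for CDH4 in the F test of limma, with replicate 3 above replicate 1 by 1.33.

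PCDH1, a protocadherin of epithelia, was at -1.93, -2.17, -1.75 and -2.11 on the replicate 1 arrays in the same order of groups, and at -1.11, 0.49, -0.95 and 0.08 on the replicate 3 arrays, without overlap. PCDH8, an activity-regulated protocadherin of the brain, was at -4.04, -4.87, -4.04 and -3.09 for replicate 1 and at -1.19, -2.59, -1.33 and -1.75 for replicate 3. CDH13, which did not pass the fold threshold in this test, was at 0.92, 0.73, 1.18 and 0.19 for replicate 1 and at -0.31, -0.17, -0.12 and 0.09 for replicate 3. Of 72 members, 5 (CDH4, CDH6, PCDH1, PCDH7 and PCDH8) passed both thresholds, where 2.94% of all genes did. An unadjusted p of 0.05 or less was reached by 14 of 72, against 13.1% of all genes, and an adjusted p of 0.05 or less by CDH4, against 0.815% of all genes. Over all genes, 206 reached that adjusted p for replicate number and 0 for each of the 4 comparisons of medium or passage, where 6069, 1836, 2052 and 3460 genes had an unadjusted p of 0.05 or less at P1, at P3, in DMEM and in ACM. The 206 became 6 with slide as a term, 588 with normexp background correction, 459 after quantile normalization and 7 to 414 with 1 array left out (7 without P3 DMEM replicate 1, 9 without P1 DMEM replicate 3 and 414 without P3 DMEM replicate 2).

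With slide as a term beside it, replicate number gave an adjusted p of 0.147 for CDH4, and after quantile normalization 0.0083. With 1 array left out the adjusted p for CDH4 was between 0.033 and 0.182, and it stayed at 0.05 or less without P3 ACM replicate 1 or P3 DMEM replicate 2 and not without any of the other 10 arrays. Under the sample labels of the authors' table, replicate number gave an adjusted p of 1.00 for CDH4, and 0 of 24847 genes reached 0.05.

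**Figure D5:**
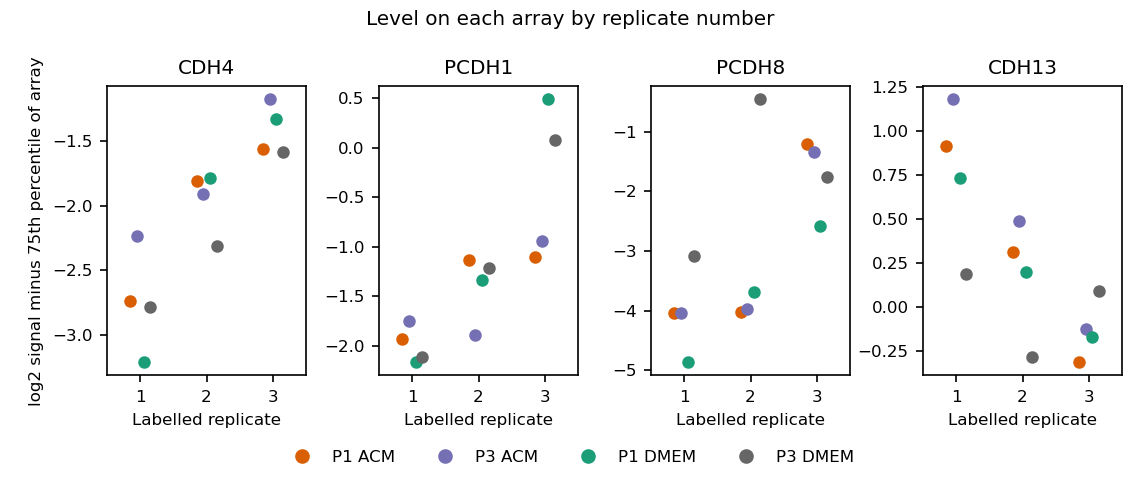
Level of CDH4, PCDH1, PCDH8 and CDH13 on each array (points, log2 signal minus the 75th percentile of the array; vertical scales differ between panels) by labelled replicate number, coloured by labelled group. For CDH4 the replicate 1 arrays lie between -3.21 and -2.24 and the replicate 3 arrays between -1.59 and -1.18 in all 4 groups, and for CDH13 the replicate 1 array is the highest of its group in 4 of 4 groups.

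Partners of the cadherins are given by list, beside the 13.5% of all genes that were higher in P1 ACM. Medium and slide cannot be told apart by the P1 arrays here either. In every partner named as higher at P1, all 4 arrays of slide 1 lay above the 8 other arrays, as in 21.7% of all genes. On slide 2 the differences of these partners between P3 ACM and P1 DMEM lay between -0.41 (PKP1) and 0.54 (SNAI3). Among catenins and plaque proteins, 2 of 13 tested were higher in P1 ACM (CTNNA3 and PKP1) and 0 were lower, and at P3 none (0) passed. An unadjusted p of 0.05 or less (limma) was reached at P3 by 0 of 13, where 1836 of 25272 genes reached it. Alpha-catenin (CTNNA1) was at 2.64, 2.66 and 2.63 in P1 ACM and at 2.90, 2.88 and 2.79 in P1 DMEM, a difference of -0.21 ± 0.14 (SE). Beta-catenin (CTNNB1) differed by -0.19 ± 0.33 (SE) at P1 and by 0.41 ± 0.33 (SE) at P3, with P3 DMEM replicate 2 at 0.13 and its 2 fellow arrays at 1.58 and 1.34. Plakoglobin (JUP), the catenin shared with desmosomes, differed by -0.68 ± 0.38 (SE) and -0.57 ± 0.38 (SE), and p120-catenin (CTNND1) by -0.25 and -0.14.

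Of the repressors of E-cadherin transcription, SNAI3 was higher in P1 ACM (1.02 on the log2 scale), 1 of 11 tested, and none (0) passed at P3. SNAI2 (Slug) differed by 0.13 at P1 and by -0.02 at P3, ZEB1 by 0.11 and -0.06, and TWIST1 by 0.29 and 0.48 (limma, adjusted p = 0.703). Of the desmosomal cadherins 1 of 5 was higher at P1 (DSG4), and DSG2, the widespread desmoglein, was between 0.09 and 0.53 over the 12 arrays. Of the other members of the cadherin superfamily 5 of 18 were higher at P1 (DCHS2, CDHR1, CDHR2, CDHR3 and CDHR4), and FAT1, a giant protocadherin of the cell surface, differed by -0.12 and 0.28. Of the proteases, phosphatases and cytosolic partners of cadherins 0 of 12 passed at either passage. An unadjusted p of 0.05 or less (limma) was reached by 2 at P1 and 1 at P3, where 6069 and 1836 of 25272 genes reached it. ADAM10, which sheds cadherin ectodomains, differed by -0.02 and -0.04.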

How the data were processed

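RNA of 12 Daoy cultures (3 for each of P1 ACM, P1 DMEM, P3 ACM and P3 DMEM) was hybridised to 12 Agilent 4 x 44K arrays in a single colour. The deposited scanner output holds background-corrected intensity per spot (Agilent Feature Extraction 11.0.1.1, per the labels) with flags for outliers and for signal well above background. A log2 table deposited by the authors covers 30569 probes; its sample labels conflict with the scanner output, and its normalization is not given in the sources used here.

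Control and outlier spots were dropped (CDH26 thereby has 2 values in P3 DMEM), spots of a probe averaged, and log2 intensity taken minus the 75th percentile of the array. Of 34127 probes, 25771 (75.5%) were named through RefSeq (GRCh38.p14). The 31078 probes well above background throughout at least 1 group entered limma 3.58.1 (R 4.3.3; 4 group means, two-sided, Benjamini-Hochberg over probes), and each gene was counted through its brightest probe. The study's thresholds were more than 2-fold and p of 0.05 or less. The array number limits the precision. On simulated data for P1, 200 probes shifted 4-fold were all recovered. That shift was wider than the P1 difference of any member, so the recovery does not speak for smaller shifts. It does not tell medium from slide either.

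Named genes were the 8 brightest CDH and 8 brightest PCDH genes detected on all 12 arrays, up to 3 rises and 3 falls per comparison, 6 classical cadherins and 10 partners; others were named after their values were seen. The members, lists and rules were chosen with earlier results of these data known. Same-numbered samples deviated together from their group means at P1 (correlations of 0.43, 0.19 and 0.27 over all probes) and not throughout at P3 (0.23, -0.19 and 0.06), so a replicate block was tried as an alternative, beside other scaling, filters, slide terms, the authors' table and leaving out each array. The replicate number test, the comparisons between slides and the slide term after quantile normalization were chosen after seeing the data.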

Additional observations from a re-analysis of the deposited data

Results flagged for a closer look

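The effect of ACM differed between P3 and P1 in 6 members by the thresholds used (more than 2-fold and an unadjusted p of 0.05 or less in the limma interaction), and in 0 at an adjusted p of 0.05 or less. These were 6 of 72 members, where 6.82% of all genes passed in the same direction. On the log2 scale the P3 effect minus the P1 effect was -1.45 in CDH1, -2.44 in CDH10, -1.34 in PCDH11X, -1.997 in PCDHA2, -1.63 in PCDHB7 and -1.36 in PCDHGB7. In P1 DMEM the PCDHA2 probe was well above background on 0 of 3 arrays, so its value is a fitted value and not a measured size. The slide 1 array of P3 ACM was above all DMEM arrays in each of the 6 genes, and the share of the slide in these values was not tested apart from the fit with slide as a term, in which 1 member passed. Of all genes, 2.84% passed in that fit.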

How the results depend on the processing

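For ACM against DMEM at P1, the 14 members past the thresholds became 5 after quantile normalization (3 higher, 2 lower), 4 with normexp background correction, 5 with probes well above background on all 12 arrays, 4 with slide as a block (all lower), 0 with slide as a random block, 2 under the labels of the authors' table (1 higher, 1 lower), 2 with slide as a block after quantile normalization (both lower), and 10 to 18 with 1 array left out. In the same order, 4.49%, 1.36%, 4.51%, 2.1%, 1.66%, 1.57%, 1.96% and 9.64% to 15.9% of all genes passed in either direction. Quantile normalization moved the median of all genes at P1 from 0.15 to 0.00. At P3, the 2 members became 4 (quantile), 1 (normexp), 7 (no filter, with 4 higher and 3 lower), 1 (all 12 arrays), 0 (the methods' t-test), 1 (random block), 6 under the authors' table (2 higher, 4 lower), 0 (slide after quantile) and 0 to 7 with 1 array left out (7 without P3 ACM replicate 3, 0 without P3 DMEM replicate 2). In the same order, 1.91%, 0.689%, 4.38%, 1.24%, 0.673%, 1.03%, 6.11%, 2.36% and 1.22% to 5% of all genes passed in either direction. For P3 against P1 in DMEM, 1 became 0 (normexp, slide block, random block, authors' table, slide after quantile), 3 (no filter), 2 (only the arrays compared, and replicate block) and 0 to 4. In the same order, 0.657%, 1.95%, 1.37%, 0.567%, 1.57%, 3.31%, 2.42%, 2.09% and 0.601% to 3.98% of all genes passed. In ACM, 8 became 1 (quantile, normexp, slide block, slide after quantile), 3 (all 12 arrays), 2 (only the arrays compared), 0 (the methods' t-test, random block, authors' table) and 1 to 23. In the same order, 1.78%, 0.186%, 0.503%, 0.554%, 1.51%, 2.27%, 0.503%, 0.546%, 0.805% and 1.2% to 19.3% of all genes passed. For the difference between passages, 6 became 3 (quantile), 1 (normexp, all 12 arrays, slide block), 2 (random block, authors' table) and 4 to 23 (23 without P3 ACM replicate 1). In the same order, 2.97%, 0.752%, 1.97%, 2.84%, 0.989%, 1.91% and 3.18% to 18.9% of all genes passed. The slide count of 24 became 9 with normexp and with all 12 arrays, and 22 to 27 with 1 array left out; it could not be fitted without P3 ACM replicate 1 or P1 DMEM replicate 3. The replicate number count of 5 became 3 (normexp), 0 (authors' table) and 3 to 7 with 1 array left out. In the same order, 425 of 25272, 112 of 24847 and 669 to 989 genes passed. Members detected on all 12 arrays numbered 48. A laxer flag, for a signal that is positive and significant, gave 66 members, and leaving out 1 array gave 48 to 51. Shares of all genes are not given here for the changed slide and detection counts, so these cannot be read against them.

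With the replicate block, 15 members passed at P1, 2 at P3, 2 in DMEM, 8 in ACM and 7 for the difference between passages, and no member reached an adjusted p of 0.05. In the same order, 13.2%, 1.92%, 2.09%, 6.59% and 6.25% of all genes passed. Of 496 values of single genes under other settings, 77 changed sign, and 13 of these had p of 0.05 or less before or after. At P1 these were PCDHGC4 (-1.28) and CDH3 (-0.17) with slide as a block, and PCDHA7 (-0.16), PCDHGC4 (-0.81), CDH10 (-1.11) and CDH3 (-0.27) under the authors' table. At P3, under the authors' table, they were CDH22 (-0.54), CDH2 (0.43), CDH11 (0.42), PCDHA7 (-0.74), PCDHGC4 (-2.17), CDH3 (-1.28) and PCDHA13 (0.84). The cause was not tested.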
